A study of Mus musculus with 2 samples.

Results

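Afp, H19, Dlk1, Gpc3, Lin28b, Igf2bp1, Igf2bp2, Igf2bp3 and Hmga2 are 9 genes of the fetal liver, several of which are also expressed again in liver tumors. They were chosen by name, and every spot that the array design assigns to one of these names was read, except control spots. The 9 genes have 15 probes on 24 spots, of 30153 gene names, 39390 probes and 43020 spots in all. Of the 9 genes, 2 were at least 4-fold higher in Sox9+EpCAM- hepatocytes than in mature hepatocytes (MHs), namely H19 and Igf2bp2, and 0 were at least 4-fold lower. Over all genes well above background on at least 1 array, 5.59% were at least 4-fold higher and 5.57% at least 4-fold lower. Afp, Lin28b and Igf2bp1 were not well above background on either array.

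Total RNA came from MHs of healthy livers and from Sox9+EpCAM- cells of chronically injured livers, and each RNA was read with the dye Cy3 on 1 Agilent mouse array. According to the study's methods, both kinds of cells came from Sox9-EGFP mice, a reporter line in which cells with an active Sox9 promoter carry green fluorescent protein. Livers were digested with collagenase, MHs were taken by low speed centrifugation and a Percoll gradient, and the Sox9+EpCAM- cells were sorted by flow cytometry as cells positive for the reporter and negative for EpCAM, a surface protein of bile duct cells, from mice fed with DDC, a compound that injures the bile ducts. A diet of 2 weeks is given for the cells of the quantitative PCR shown with the arrays. The strain background, the age and the number of mice behind each array are not given in the sources used here, and diet and way of isolation cannot be told apart from the group. With 1 array per group no value has a replicate error and no test was possible, so that a difference is described by its size alone. In RNA from many cells, fewer cells of a type and less RNA per cell cannot be told apart.

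In the fetal liver, hepatoblasts divide and give rise to hepatocytes and bile duct cells, and they secrete alpha-fetoprotein, the product of Afp, where adult hepatocytes secrete albumin. H19 is an imprinted long noncoding RNA next to Igf2, and Dlk1 is an imprinted gene for a surface protein by which hepatoblasts are often sorted. Lin28b blocks the maturation of the let-7 miRNAs, which repress Hmga2, the Igf2bp genes and other growth genes, so that these genes are usually described as a group that is active before birth and silent in the adult liver.

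The values are spot intensities after background subtraction, and differences are Sox9+EpCAM- minus MH on the log2 scale after each array was set to the 75th percentile of its intensities, which was 741 for MHs and 1110 for Sox9+EpCAM- cells. A spot counts as well above background where the scanner software called it so. This was the case for 27523 spots in MHs and 32158 in Sox9+EpCAM- cells, with a lowest such intensity of 27.8 and 18.4. Of 153 negative control spots, 2 passed the same call for MHs and 1 for Sox9+EpCAM- cells, and their medians were 6.43 and 4.16. Between spots of a probe printed at least 8 times, the median SD below an intensity of 100 was 0.16 on the log2 scale on both arrays. Where a probe was not well above background on 1 array, a fold is given as "at least", against that array's lowest intensity well above background or its own signal, whichever was higher. Both samples are labelled male. Xist was bright in MHs and dark in Sox9+EpCAM- cells (3500 against 4.39 for its brighter probe), and of 5 probes of the Y-linked genes Ddx3y, Kdm5d, Eif2s3y and Uty, 0 passed the background call in MHs and 4 in Sox9+EpCAM- cells. The MH array thus goes against its label for sex, and each difference below is also one between RNA with and without Xist. Sox9 was at 8.52 on the MH array, not well above background, and at 60.2 on the Sox9+EpCAM- array, and Epcam rose from 139 to 2770, a log2 difference of 3.73 in cells sorted as EpCAM-. Of the secreted proteins of hepatocytes, all 12 that were read, such as Alb at 207000 and 170000, were well above background on both arrays.

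The sequences behind the results are given here so that the probes can be told apart. The array design assigns both H19 probes to the same transcript record and places them 925 bases apart on it, the same distance as on the genome. Whether both lie in the mature RNA was not analysed. They are shown because they gave different results.
H19 probe A_55_P1961127: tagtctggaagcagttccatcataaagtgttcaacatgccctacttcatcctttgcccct
H19 probe A_55_P1961125: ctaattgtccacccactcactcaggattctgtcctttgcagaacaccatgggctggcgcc
Both lie on the minus strand of chromosome 7 (mm9, the build of the array design), at chr7:149761492-149761551 and chr7:149762417-149762476. None of the 15 probes of the 9 genes has 20 bases in a row in common with a probe for a different gene, whereas 7.67% of 39429 probes do.

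For Hmga2, a stretch of a probe that holds the letters complementary to the let-7 seed is shown beside let-7a-5p, with the seed (bases 2 to 8) and its complement in capitals.
let-7a-5p: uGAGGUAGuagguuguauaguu
Hmga2 probe A_52_P300730, part: aaacacactaCTACCTCttaag
The mature sequence is that of RefSeq (GRCm38.p6), in which 11 of 1679 mature miRNAs share this seed. The 7 letters CTACCTC, searched on the probe strand only, stand in 150 of 39429 probes (0.38%) and in 1 of the 15 probes described here. A match is a description of the probe and does not show that let-7 binds there.

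Of the 9 genes, 7 have a promoter in the RefSeq table, here the 250 bases before the start on GRCm38.p6. The promoter of Afp, which stayed dark, and that of Igf2bp2, which did not, are shown because they hold different motifs. Capitals mark GTTAATN followed directly by ATT (a core of the HNF1 motif) and TATAAA (the letters of the TATA box motif) in Afp. In Igf2bp2 they mark GGGCGG or its reverse complement CCGCCC (the GC box).
Afp promoter, chr5:90490464-90490713, plus strand: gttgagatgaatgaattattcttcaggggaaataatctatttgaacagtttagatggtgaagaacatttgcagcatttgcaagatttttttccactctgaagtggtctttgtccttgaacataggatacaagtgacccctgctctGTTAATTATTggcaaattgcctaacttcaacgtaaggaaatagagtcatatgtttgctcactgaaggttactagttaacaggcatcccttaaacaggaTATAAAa
Igf2bp2 promoter, chr16:22163300-22163549, minus strand: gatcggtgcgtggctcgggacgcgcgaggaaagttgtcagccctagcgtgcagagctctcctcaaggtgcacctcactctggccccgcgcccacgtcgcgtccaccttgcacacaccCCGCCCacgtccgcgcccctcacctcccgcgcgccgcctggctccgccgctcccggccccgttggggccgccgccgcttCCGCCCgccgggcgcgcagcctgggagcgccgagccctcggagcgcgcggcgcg
Both strands were searched for 5 motifs. The HNF1 core stands in 0.371% of 32851 promoters and, of the 7, in that of Afp at -105 to -96. TATAAA stands in 12.4% of promoters and, of the 7, also in that of Afp alone, at -7 to -2 from the start used here. A match describes the letters only, and its function was not tested. The GC box stands in 32.7% and in those of Hmga2, Igf2bp2 and Gpc3, the E-box CACGTG in 6.02% and in those of Igf2bp3 and Lin28b, and TGANTCA, an AP-1 motif, in 6.75% and in 0 of the 7. The Afp promoter holds 1 CpG and that of Igf2bp2 holds 40, against a median of 6 over all promoters. Of the others, Gpc3 has 25, Igf2bp3 has 21, Dlk1 and Hmga2 have 8 each, and Lin28b has 6. A relation between promoter sequence and signal was not tested.

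Afp encodes alpha-fetoprotein, the main serum protein of the fetus and a marker of liver cancer. Its 1 probe, at chr5:90937781-90937840, was printed on 10 spots, of which 9 were kept. On the MH array the kept spots lay between 6.06 and 7.82 with a median of 6.76, and on the Sox9+EpCAM- array between 5.36 and 14.8 with a median of 11.4. None of these spots was well above background, and with the 75th percentiles taken into account the mean levels differed by -0.03 on the log2 scale, a value without a direction at this signal. The spot left out was at 229 in MHs, well above background, and at 8.37 in Sox9+EpCAM- cells. The software flagged it on the MH array, either as not uniform or as an outlier among its copies. It lay far from the other spots of the same probe.

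**Figure D1:**
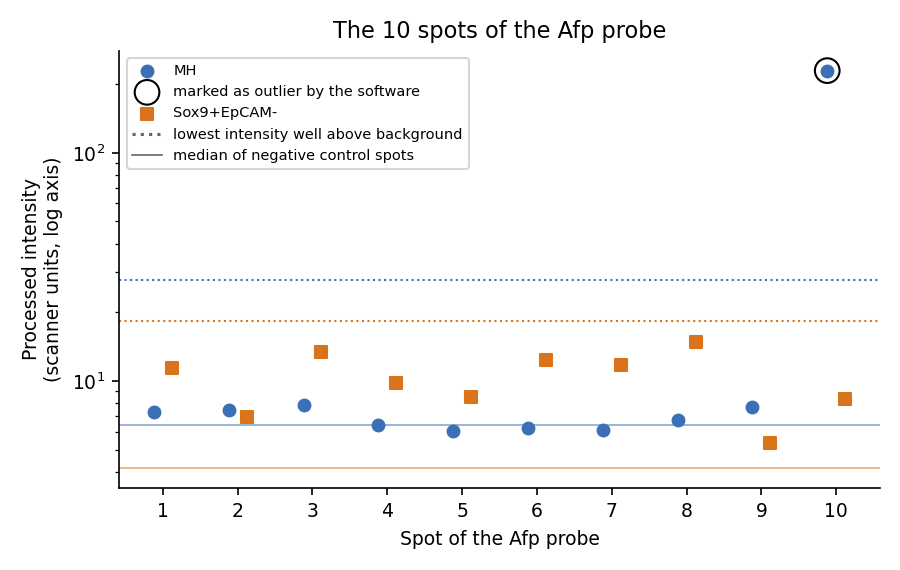
Processed intensity (log axis, scanner units) of the 10 spots of the Afp probe on the MH array (circles) and the Sox9+EpCAM- array (squares), with the lowest intensity well above background (dotted) and the median of the negative control spots (solid) of each array in its color. All kept spots lie below the dotted line of their array, and 1 MH spot at 229, ringed, was marked as an outlier.

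The genes beside Afp were well above background on both arrays. Alb, Afm and Gc are the other genes of the albumin family cluster, and all of them were lower in Sox9+EpCAM- cells, with log2 differences of -0.87 for Alb, -4.15 for Afm (9770 to 822) and -0.88 for Gc (65700 to 53600). The median over all genes with a difference was -0.12. Of 16 factors known to activate or repress Afp, 15 had a difference, with a median of -0.35, and 12 of them were below 0. Trp53, which encodes p53, a repressor of Afp, was the 1 factor at least 4-fold different, at 433 in MHs and 3330 in Sox9+EpCAM- cells, 5.13-fold higher. Zhx2 and Zbtb20, the repressors that silence Afp after birth, were at 800 and 767 and at 1180 and 1070, with log2 differences of -0.64 and -0.72. Cebpa, an activator, had the lowest difference of the list with -1.29, and Zfhx3 was not well above background on either array (6.02 and 11.8).

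H19 was higher in Sox9+EpCAM- cells by both of its probes, by very different amounts. Probe A_55_P1961127 was at 7.40 in MHs, not well above background, and at 2530 in Sox9+EpCAM- cells, where the software's error of the spot was 253. By this probe, H19 was therefore higher in Sox9+EpCAM- cells by at least 60.8-fold, or 5.92 on the log2 scale. The other probe, A_55_P1961125, was well above background on both arrays, at 57.8 and 182, a log2 difference of 1.07 with a spot error of 0.26. Since the larger difference is a bound, the differences of the probes were at least 4.85 apart on the log2 scale. Of 4916 genes with at least 2 probes that had a difference or bound, 64 (1.3%) had values as far apart, and the median range was 0.88. Among 4000 genes with several probes well above background on both arrays, a class that does not hold H19, there were 17 (0.425%), and the median range was 0.75. The size of the H19 difference thus depends on the probe, and the median of both, which includes the bound, was 3.50.

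H19 belongs to a network of imprinted genes, many of which are active in the fetus and fall after birth. Of 22 imprinted genes listed besides H19 and Dlk1, 21 are on the array, 19 had a difference, and the median was 0.25. In MHs, 19 of the 21 were well above background, with Slc38a4, for example, at 24100. At least 4-fold higher were 3 genes, and 0 were at least 4-fold lower. Peg3, a zinc finger gene, rose from 269 to 3700 (9.18-fold), Impact, a regulator of translation, from 496 to 5630 (7.58-fold), and Igf2r, the receptor that clears Igf2, from 40.3 to 341 (5.65-fold). By the median of all its probes the difference of Impact was 1.88, and after normexp correction that of Igf2r was 1.37, both under 4-fold. The probes of this network differed among themselves. Of 10 genes with several probes, Plagl1, Gnas and Peg10 were not past 4-fold but had further probes that were at least 4-fold higher (at least 5.39 and 4.36, at least 3.85, and 3.70 on the log2 scale), and Mest, at 0.25 by its brightest probe, had further probes at -2.64 and -3.59 or lower. By the median of all probes, Plagl1 was past 4-fold as higher (2.11) and Mest as lower (-2.64). Igf2, the fetal growth factor that shares its enhancers with H19, was at 15.8 in MHs, not well above background, and at 40.4 in Sox9+EpCAM- cells, and no fold can be given. Meg3, the noncoding RNA of the Dlk1 domain, was at 54.1 and 224, a log2 difference of 1.47, while its further probes differed by 1.62 and -1.04. Ndn had the lowest difference with -1.23, Phlda2 was not well above background on either array (5.93 and 8.87), and Rian has no probe under this name.

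Dlk1 encodes a transmembrane protein with EGF repeats and is shed from hepatoblasts. Probe A_66_P117477, at chr12:110698721-110698781, was at 39.4 in MHs and 147 in Sox9+EpCAM- cells, 2.49-fold higher. This log2 difference of 1.32 had a spot error of 0.30, and it was below the 4-fold rule. Of the other genes measured on both arrays, 360 lay within 0.1 of this difference, and 8.25% of genes were higher. The other probe, at chr12:110698502-110698561, was at 6.03 and 8.62, not well above background on either array, so that the value of Dlk1 rests on 1 probe with 1 spot. Of 11 genes for Notch ligands, Notch receptors, the Dlk1 relative Dlk2 and the sheddase Adam17, 9 had a difference, with a median of -0.35. Jag1, the Notch ligand that drives bile duct formation, was at 24.9 in MHs, not well above background, and at 434 in Sox9+EpCAM- cells, at least 10.4-fold higher, and was the 1 gene of this list past 4-fold, a call lost after normexp correction (1.82 on the log2 scale). Dlk2 was at 513 and 2310 (a log2 difference of 1.59, and 0.05 by its other probe), Notch2 had the lowest difference with -1.53, but 1.68 by its other probe, and Notch3 was not well above background on either array (22.5 and 21.8).

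Gpc3 encodes glypican 3, a heparan sulfate proteoglycan of the cell surface that is used as a marker of liver cancer, and lies on the X chromosome. Probe A_52_P23225, at chrX:49625740-49625799, was at 13.4 in MHs, not well above background, and at 79.2 in Sox9+EpCAM- cells, at least 1.90-fold higher. The other probe, at chrX:49740892-49740951, was at 23.0 and 22.8, of which the second value counted as well above background, and no fold can be given. Among 12 other genes of glypicans, syndecans and enzymes that act on heparan sulfate, 11 had a difference, with a median of 0.02. Sulf1, a sulfatase, was the 1 gene past 4-fold, at 15.5 in MHs, not well above background, and 176 in Sox9+EpCAM- cells, at least 4.23-fold higher, while its other probe gave a bound of at least 0.23 on the log2 scale. The call of Sulf1 was lost with normexp correction (1.04), quantile normalization (1.87), the deposited table (1.90) and the median of all probes (1.16). Sdc1, a syndecan of hepatocytes, had the lowest difference with -1.42, and Gpc6 was not well above background on either array (14.9 and 19).

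Igf2bp2 encodes an RNA-binding protein that binds Igf2 mRNA among others, and it was the second gene past 4-fold. Probe A_51_P315682, at chr16:22059260-22059319, was at 8.18 in MHs and at 1620 in Sox9+EpCAM- cells, with a software error of 162. Probe A_55_P2170737, at chr16:22059582-22059641, was at 27.1 in MHs and at 734 in Sox9+EpCAM- cells, with an error of 73.6. Neither was well above background in MHs, and in Sox9+EpCAM- cells the probes were higher by at least 38.9-fold and at least 17.6-fold. The latter, with a bound of 4.14 on the log2 scale, stands for the gene as the probe with the higher mean of log2 values. The probes lie 322 bases from each other, and because both values are bounds, how far the probes differed is not known.

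The relatives of Igf2bp2 did not share this. Igf2bp1, which stabilizes growth mRNAs in the embryo, was at 7.36 and 5.05 at chr11:95824526-95824585, not well above background on either array. Igf2bp3, an oncofetal marker of many tumors, was well above background on both arrays at chr6:49035710-49035769, at 54.8 in MHs and 38.4 in Sox9+EpCAM- cells. It was 2.14-fold lower in the latter, with a log2 difference of -1.10 and a spot error of 0.36, and 777 other genes lay within 0.1 of it. Of the genes measured on both arrays, 15.3% had a lower difference. Only Igf2bp2 of the Igf2bp genes thus passed 4-fold. Because each probe has its own brightness, their levels were not set against each other.

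**Figure D2:**
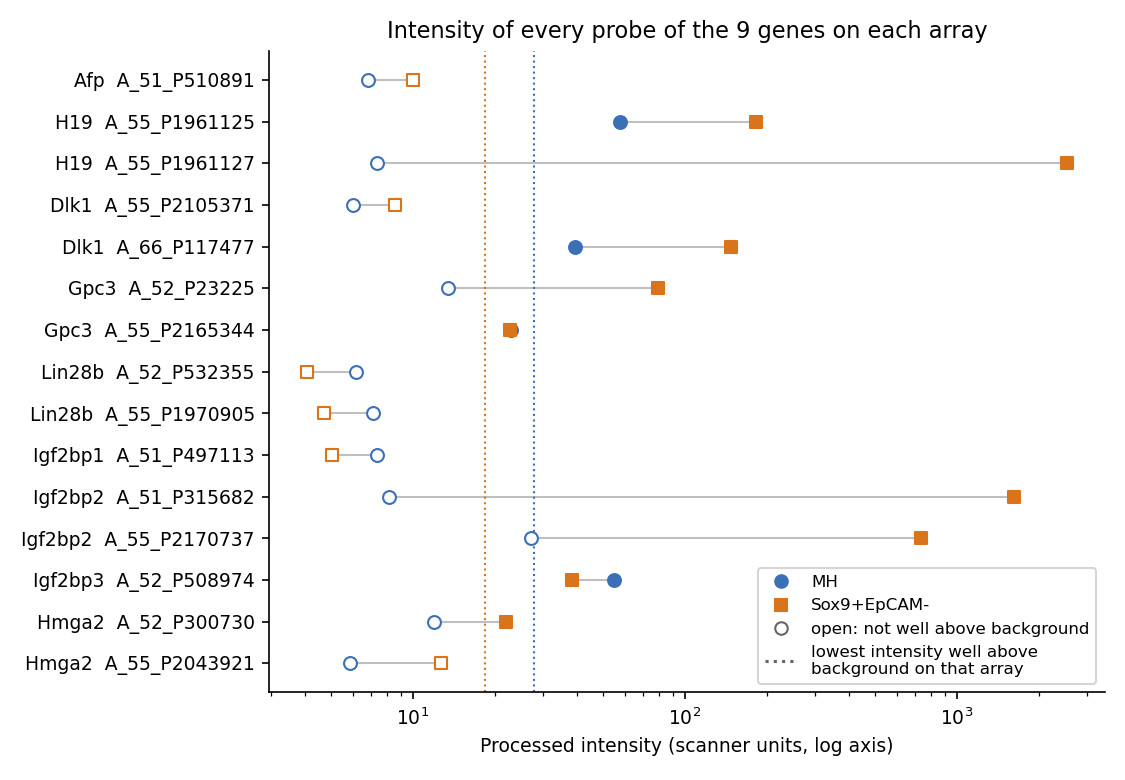
Processed intensity (log axis, scanner units) of the 15 probes on the MH array (blue circles) and the Sox9+EpCAM- array (orange squares), as the mean of the kept spots. Open symbols were not well above background, dotted lines mark the lowest intensity well above background on each array (27.8 and 18.4), and a probe of H19 and both probes of Igf2bp2 go from open circles to filled squares at 2530, 1620 and 734.

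Lin28b, the RNA-binding protein that blocks let-7 in fetal cells, was dark on both arrays. Its probe at chr10:45140412-45140471 was at 6.17 in MHs and 4.09 in Sox9+EpCAM- cells, and that at chr10:45096468-45096527 was at 7.15 and 4.72, close to the medians of the negative control spots. Hmga2, a chromatin protein of growing embryonic cells and a target of let-7, had a probe at chr10:119798739-119798798 (the one that holds the seed complement) at 11.9 in MHs and 22.0 in Sox9+EpCAM- cells. Only the latter was well above background, and it was too dim for a fold. The other Hmga2 probe, at chr10:119800621-119800680, was at 5.89 and 12.7, not well above background on either array.

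Of 21 further genes of the Lin28 and let-7 axis, that is the let-7 processing machinery and known let-7 targets, 18 had a difference, with a median of 0.34. At least 4-fold higher were 4 genes and at least 4-fold lower was 1. Myc, the growth regulator, rose from 350 to 32900 (62.8-fold), Irs2, an adaptor of the insulin receptor, from 583 to 6260 (7.17-fold), E2f6 from 46.4 to 335 (4.82-fold) and Arid3a from 32.9 to 229 (4.65-fold). Ccnd2, a cyclin, was at 444 and 160, a log2 difference of -2.06. After normexp correction E2f6 (1.22), Arid3a (0.93) and Ccnd2 (-1.70) were within 4-fold, and Ccnd2 also after scaling to Gapdh (-1.79). Of 10 genes with several probes, Hmga1, the relative of Hmga2, and Arid3b were within 4-fold but had further probes at 3.52 and at least 2.95, and Dis3l2 had a further probe at -2.08. Lin28a, the paralog of Lin28b, was at 20.3 in MHs, not well above background, and at 29.1 in Sox9+EpCAM- cells, too dim for a fold, and Mycn and Cdc25a were not well above background on either array. Of the 18 differences, 12 were above 0 and 6 below, and those within 4-fold were not read as changes.

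**Figure D3:**
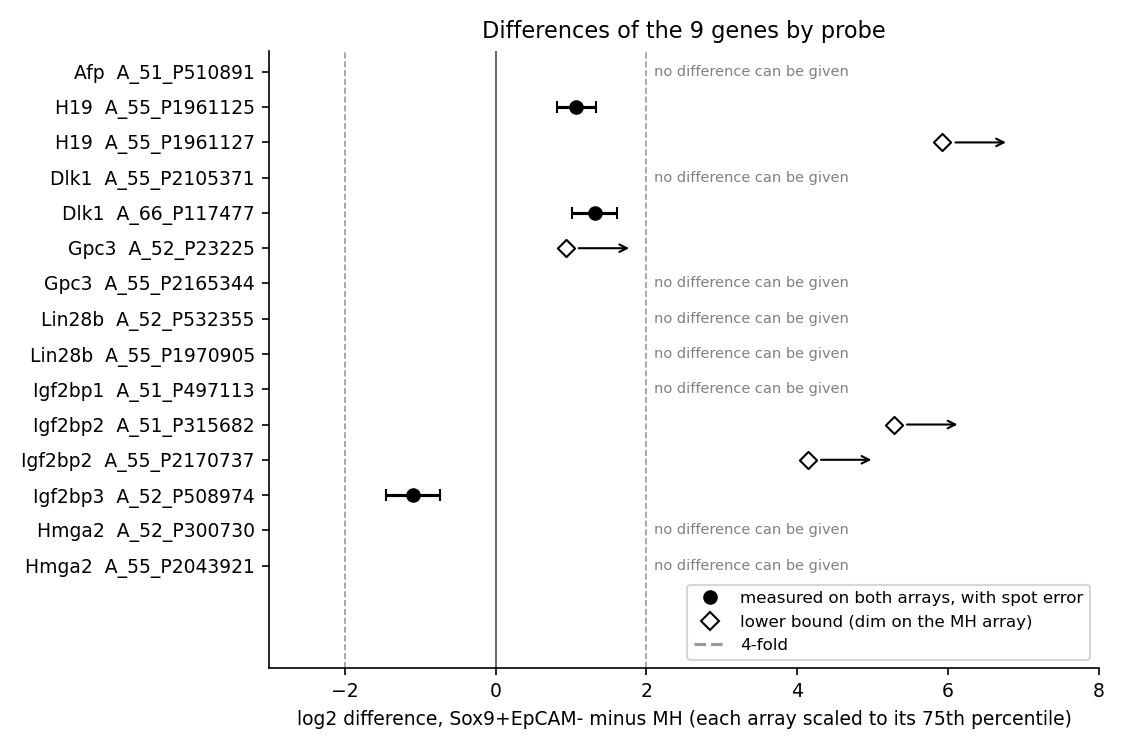
Log2 difference (Sox9+EpCAM- minus MH) of the 7 of 15 probes that had one, as points with the spot error of the software where both arrays were well above background, and as diamonds with an arrow where the value is a lower bound, with a remark in place of a symbol for the other probes. Dashed lines mark 4-fold, which the 3 bounds of H19 and Igf2bp2 pass, while the probes measured on both arrays lie at 1.07, 1.32 and -1.10.

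Over probes, 3 of the 15 passed the background call on both arrays, 6 in Sox9+EpCAM- cells only and 6 on neither array. At least 4-fold higher were 3 of them, which belong to 2 genes, against 6.24% over all probes well above background on at least 1 array. With 9 genes no difference from the rest of the array was read from this count. All 3 rest on bounds, so their order in size is not known.

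Other genes of hepatoblasts and the fetal liver were read in the same way, from a list of 21 that includes Prox1, Onecut1 and Mdk. Of these, 20 had a difference, with a median of -0.41. Bex1 was at 21.7 in MHs, not well above background, and at 1090 in Sox9+EpCAM- cells, at least 26.2-fold higher, and Bex2 was at 16 and 367, at least 8.81-fold higher. Ncam1, an adhesion molecule, rose from 47.0 to 413 (5.87-fold). Lgr5, a stem cell marker, was at 90.4 in MHs and at 3.98 in Sox9+EpCAM- cells, not well above background, a log2 difference of -2.88 or lower. A second probe of Bex1 also gave a bound (at least 1.06), and a second probe of Ncam1 a difference of -0.23. After normexp correction Bex2 (1.76), Ncam1 (1.35) and Lgr5 (-1.69) were within 4-fold, and Hk2 was not well above background on either array (6.79 and 11.1). Of 17 enzymes of adult hepatocytes, 9 were at least 4-fold lower and 0 higher, with a median of -2.07. Ass1 was within 4-fold after quantile normalization (-1.58) and scaling to Gapdh (-1.80), and Tat after quantile normalization (-1.97). In this list Cyp3a11, a drug-metabolizing enzyme, had the lowest difference measured on both arrays with -8.58, while Cyp7a1, the rate-limiting enzyme of bile acid synthesis, had a bound of -8.49 or lower. Secreted liver proteins differed less, with 0 of 12 past 4-fold and a median of -0.62.

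Markers of other liver cells differed as well. The methods of the array sort name no gate beyond the reporter and EpCAM, while for other sorts of such cells in the study, CD31 and CD45, surface proteins of endothelial cells and leukocytes, were gated out, and whether this holds for the array sample is not given in the sources used here. Of 14 markers of stellate cells and fibroblasts, 13 had a difference, with a median of 1.84, and 6 were at least 4-fold higher, among them Col3a1 (175 to 22300, 85.1-fold), Col1a1 (82.6 to 2630, 21.3-fold) and Eln (7.0 to 5570, at least 134-fold). Their summed level was 12.9 and 55.5 times the 75th percentile, and 12.7 and 35.5 without Col3a1, its largest part, while Dcn, Des and Acta2 differed by 0.31, 0.09 and 0.42, Lrat was lower (94.6 to 3.74), and Pdgfrb was not well above background on either array. Of 10 cholangiocyte markers, 2 were at least 4-fold higher, Epcam and Spp1 (258 to 47000), the median was 0.47, and the summed level was 3.04 and 49.5, or 2.70 and 7.16 without Spp1. These sums add probes of unlike brightness, so that they compare the arrays and not the genes. Krt19 and Krt7 differed by 0.42 and -0.23. The medians of the stellate cell list ranged from 0.71 after normexp correction to 3.70 without the bound. The markers of endothelial cells, leukocytes and erythroid cells had medians of -3.02, -2.64 and -2.10, with summed levels of 7.05 and 2.19, of 26.6 and 3.69 and of 4.27 and 0.65, and after normexp correction the first 2 medians were -1.67 and -1.62. Of 8 endothelial markers 4 were at least 4-fold lower and 0 higher, with differences from -3.55 for Clec4g to -0.46 for Stab1. Of 12 leukocyte markers 6 were at least 4-fold lower, down to -6.43 for Clec4f, but Cd68 rose from 52.9 to 1140 (14.4-fold), and Ptprc, which encodes CD45, differed by -0.24. Of 9 erythroid genes 3 were at least 4-fold lower, with Hba-a1 at 1820 and 176, while the embryonic globin Hbb-bh1 was at 14.3, not well above background, and 96.7, at least 2.32-fold higher. Lyve1 and Hbb-b1 were not well above background on either array. Of 10 genes of dividing cells, 6 had a difference, with a median of -0.15 and 0 past 4-fold, and Mki67 was well above background in Sox9+EpCAM- cells only, at 119. The part of these other cells in the differences of H19, Igf2bp2, Dlk1 and Gpc3 was not tested.

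**Figure D4:**
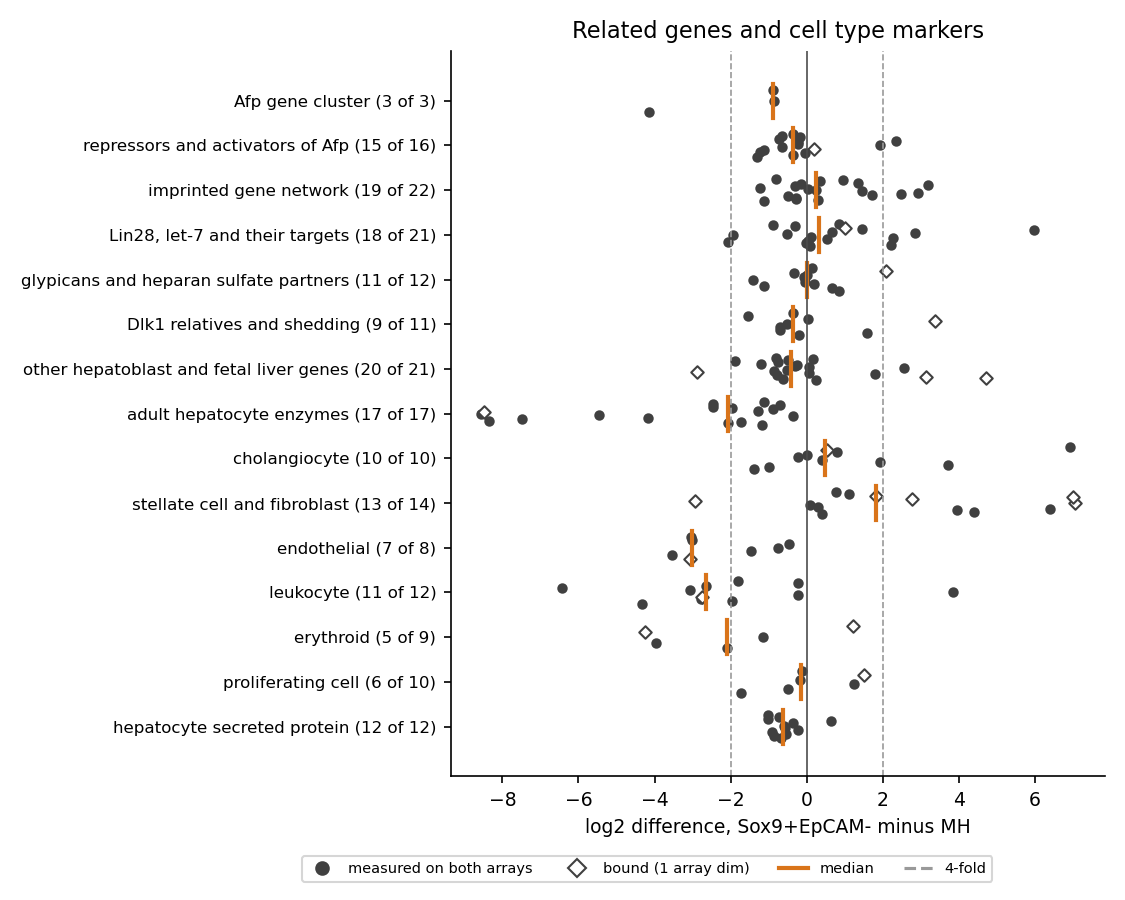
Log2 difference (Sox9+EpCAM- minus MH) of the genes in each list, with the number that had a difference of the number listed, as filled points where both arrays were well above background and open diamonds where 1 array gave only a bound. Orange bars are medians and dashed lines 4-fold; the median is 1.84 for stellate cell and fibroblast markers, where it falls on a bound, and -3.02 for endothelial markers.

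The directions of H19, Igf2bp2, Dlk1, Gpc3 and Igf2bp3 were the same in every way of processing that gave them a value, but the sizes were not. A bound below 0 counted as no value. The bounds of H19, Igf2bp2 and Gpc3 could therefore turn only in the setting that dropped the bound. After background correction by the normexp method with an offset of 50, the differences were 4.08 for H19, 0.51 for Dlk1, 0.06 for Gpc3 and -0.71 for Igf2bp3. For Igf2bp2 the other probe became the brighter, at 3.47, while the probe reported above was at 2.26. The rise of Gpc3 was thus close to nothing in that setting, and H19 and Igf2bp2 stayed above 4-fold in each setting that kept genes dim on 1 array. The H19 probe measured on both arrays stayed within 4-fold, between 0.57 and 1.34.

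**Figure D5:**
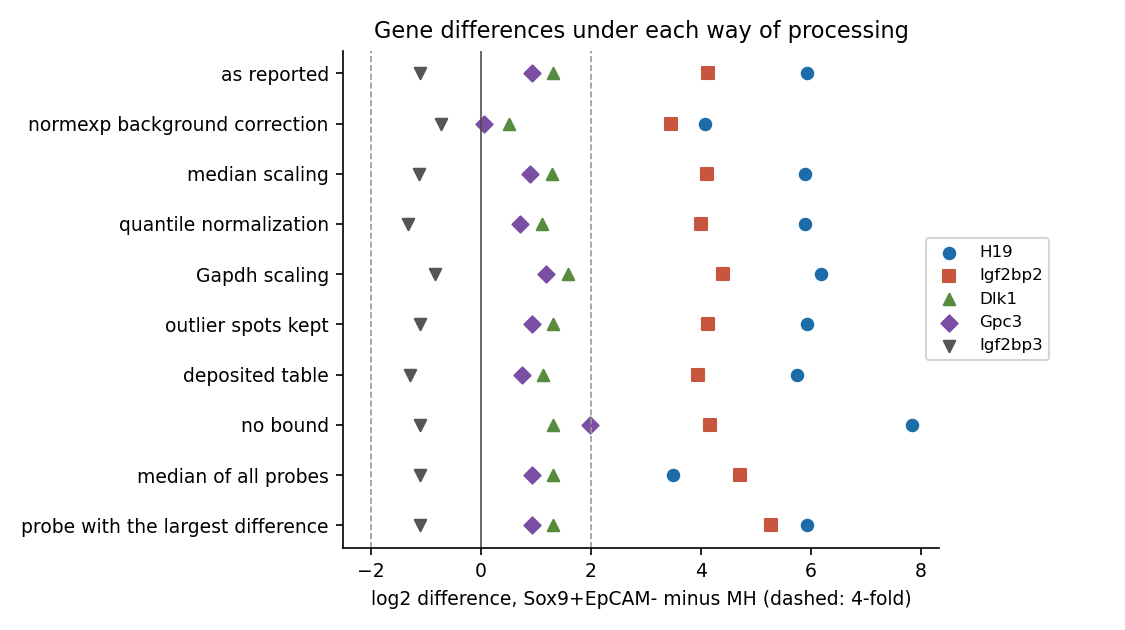
Log2 difference (Sox9+EpCAM- minus MH) of the 5 genes that had a value, as reported and under each other way of processing. H19 lies between 3.50 and 7.83 and Igf2bp2, with the probe that each setting selects, between 3.47 and 5.28, both to the right of the dashed 4-fold line, while Dlk1 and Igf2bp3 stay between the dashed lines.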

How the data were processed

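Labelling and hybridisation followed a service provider's protocol that the labels call undisclosed. The authors deposited scanner output of Feature Extraction 10.7.3.1 for each array, from which the background-subtracted intensity, not normalized between arrays, its error and its flags were used. The ratio values of a further deposited table equalled this intensity over its array's median (SD of the log2 factor at most 0.0018).

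Controls were dropped, as was any spot that the software flagged on either array for being not uniform or an outlier among its copies. Each array's 75th percentile was subtracted from its log2 intensities, which were then averaged over the spots of a probe. A gene with several probes is read through the brightest, by its mean of both arrays. The spot error of a difference was carried from the software's errors and covers neither mice nor preparations. Depth has no meaning for arrays; their number limits the precision. All 9 names in the design are current RefSeq symbols. Whether a probe lies in an exon or another part of its gene was not analysed here.

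All 9 genes were named with every probe. Of each list, the text names genes at least 4-fold different, the highest and lowest differences, and genes not well above background; others (Alb and Gc, Zhx2 and Zbtb20, Meg3, Dlk2, Igf2, Lin28a, single markers and genes with differing probes) were named for their known roles, after their values were seen. The 9 genes and the lists were chosen with earlier results of these data known. As alternatives, the background was corrected by normexp (offset 50; limma 3.58.1, R 4.3.3), arrays were scaled by the median of commonly detected probes, by quantiles or by the brightest Gapdh probe, flagged spots were kept, the deposited table was used, the bound was dropped, all probes of a gene entered by their median, genes dim on 1 array were dropped, and the threshold was set to 2-fold or 10-fold. The probe with the largest difference was added after seeing the data. Changes of more than 1.5-fold counted as a move. Python 3.11.15 with pandas 2.3.3, numpy 2.4.6 and matplotlib 3.10.9 was used, and the procedure was tested on simulated data.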

Additional observations from a re-analysis of the deposited data

How the results depend on the processing

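No paired analysis was possible because only 1 array was hybridised per group, and for the same reason no array could be left out and no slide block could be fitted. No direction of the 5 genes with a value turned, which for the bounds of H19, Igf2bp2 and Gpc3 was possible only without the bound. Normexp background correction moved H19 to 4.08, Dlk1 to 0.51, Gpc3 to 0.0586 and Igf2bp2 to 3.47 (its other probe then being the brighter, with 2.26 for the probe as reported), and gave 612 genes at least 4-fold higher and 660 lower, against 1309 and 1304 as reported; its offset raises low signals by construction. Without the bound, H19 was at 7.83 and Gpc3 at 1.98. The median of all probes gave 3.50 for H19. With only genes above background on both arrays, 0 of the 9 genes and 758 of all genes were at least 4-fold higher, since the probes that stand for H19 and Igf2bp2 then have no value (the other H19 probe, measured on both arrays, is at 1.07). At 2-fold, 3 of the 9 genes (H19, Igf2bp2 and Dlk1) counted as higher and 1, Igf2bp3, as lower, with 3319 genes higher and 3918 lower in all, and at 10-fold 363 were higher and 344 lower. The probe with the largest difference, an alternative chosen after seeing the data, gave 5.28 for Igf2bp2. Scaling to Gapdh shifted the median over genes measured on both arrays by 0.27 and gave 1650 genes higher and 1006 lower. Of its calls 62.1% were higher, against 50.1% as reported. The deposited table shifted this median by -0.18 and gave 1130 genes higher and 1563 lower (42.0% higher). Without the bound, 1949 genes were higher and 1416 lower (57.9% higher). Of the list counts under all alternatives, 281 stayed within 1.5-fold and 49 did not, and of the list medians 129 and 6. Intensities under 27.8 on the MH array or 18.4 on the other could not be measured, which limits what can be said of Afp, Lin28b, Igf2bp1 and Hmga2.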
